A study of Homo sapiens with 20 samples.

Results

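The endocrine lineage transcription factors described here are 9 genes, NEUROG3, NEUROD1, PAX4, PAX6, NKX2-2, INSM1, ISL1, RFX6 and MAFA. They were taken by symbol from the 60624 Ensembl gene identifiers in each table of human islet-like organoids (hILOs) and the 60623 in each table of pancreatic progenitors (PPs), and all 9 were listed at both stages. The cells came from MEL1, a human embryonic stem cell line that carries a GFP reporter in the insulin locus. Wild-type (WT) cells were compared with A5-KO cells, in which ALKBH5, a demethylase of N6-methyladenosine (m6A) in RNA, had been targeted in its first exon with CRISPR-Cpf1 and a colony picked, so the A5-KO cells are 1 edited line. The hILOs were sequenced without further treatment, with 2 libraries for each genotype. PPs, the stage at which the pancreatic fate has been set but hormone cells have not formed, were exposed to actinomycin D (Act D, an inhibitor of transcription, 1 μg/ml) for 0, 1, 2 or 3 h, with 2 libraries for every combination of genotype and time (16). The study calls its decay libraries biological replicates, but whether each came from a differentiation of its own is given in neither the labels nor the methods, so p-values measure the spread between these libraries.

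Endocrine cells of the pancreas arise from progenitors that transiently switch on NEUROG3, a basic helix-loop-helix factor. NEUROG3 then activates a second tier of factors, among them NEUROD1, PAX4, NKX2-2, INSM1 and RFX6, which fix the endocrine fate and divide it among the hormone cell types. ISL1 and PAX6 maintain hormone transcription in the differentiated cell, and MAFA is an activator of the insulin gene in the mature beta cell. NEUROG3 and NEUROD1 bind DNA at E-boxes, short sites of the form CANNTG, and the HES1 repressor of NEUROG3 binds at N-boxes of the form CACNAG.

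The 3 factors called different between the genotypes in hILOs were NEUROG3, NEUROD1 and PAX4. NEUROG3 passed the filter on level only through WT, and its call was lost with no filter. The 250 bases before the start of each transcript are shown so that a reader can see which carry an E-box (capitals). The sequences are from RefSeq on GRCh38, read 5′ to 3′ towards the gene; all 3 genes lie on the minus strand, and the stretches shown are chr10:69573423-69573672 for NEUROG3, chr2:181680518-181680767 for NEUROD1 and chr7:127618143-127618392 for PAX4.
NEUROG3: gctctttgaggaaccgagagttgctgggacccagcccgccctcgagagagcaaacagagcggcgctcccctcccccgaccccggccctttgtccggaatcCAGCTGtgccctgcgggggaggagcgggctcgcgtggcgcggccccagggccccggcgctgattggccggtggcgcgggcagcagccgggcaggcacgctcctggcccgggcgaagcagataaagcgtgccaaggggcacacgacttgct
NEUROD1: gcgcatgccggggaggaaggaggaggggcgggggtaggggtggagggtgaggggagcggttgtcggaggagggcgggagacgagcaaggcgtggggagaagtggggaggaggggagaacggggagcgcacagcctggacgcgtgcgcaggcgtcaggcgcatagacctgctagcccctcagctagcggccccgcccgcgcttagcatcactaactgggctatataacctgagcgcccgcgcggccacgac
PAX4: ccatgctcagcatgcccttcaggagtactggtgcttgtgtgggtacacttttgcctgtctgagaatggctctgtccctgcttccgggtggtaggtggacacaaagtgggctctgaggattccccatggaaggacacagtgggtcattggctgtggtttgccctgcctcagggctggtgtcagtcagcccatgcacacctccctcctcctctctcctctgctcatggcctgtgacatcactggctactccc
CANNTG, which reads as the same pattern on both strands, occurred 1 time upstream of NEUROG3, at 150 bases before the start, and 0 times upstream of NEUROD1 and PAX4. The NEUROD1 stretch precedes the start of its reference transcript but lies inside the annotated gene, which extends to base 181680827. Of 35116 such stretches of 250 bases, 61.8% held at least 1 CANNTG. The N-box CACNAG, searched on both strands, occurred 3 times upstream of PAX4 and 0 times in the other 2 stretches, and 32.0% of all stretches held it. Both patterns can overlap in a stretch, and a match is only a match of letters. The table of promoters held an entry for 6 of the 9 genes, and for 4 of these, ISL1 being the fourth, the entry began at the start of the gene's reference (MANE) transcript.

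The transcripts differ in build (coordinates of GRCh38 as in GENCODE). INSM1 (ENSG00000173404, chromosome 20, 20368104 to 20370949, plus strand) has 1 exon. NEUROG3 (ENSG00000122859, chromosome 10, 69571698 to 69573422, minus strand), NEUROD1 (ENSG00000162992, chromosome 2, 181668295 to 181680827, minus strand) and NKX2-2 (ENSG00000125820, chromosome 20, 21511017 to 21514064, minus strand) have 2 exons each, and in all 5 of the 9 genes, MAFA (ENSG00000182759) with 1 exon included, had at most 2 exons, against 12.5% of the 19061 MANE transcripts. PAX4 (ENSG00000106331, chromosome 7, 127610292 to 127618142, minus strand) has 12 exons, PAX6 (ENSG00000007372, chromosome 11, 31784779 to 31817961, minus strand) 14, ISL1 (ENSG00000016082, chromosome 5, 51383448 to 51394730, plus strand) 6 and RFX6 (ENSG00000185002, chromosome 6, 116877212 to 116932161, plus strand) 19. The pentamer GGACT, a common form of the m6A consensus, occurred from 0.351 times per kb in INSM1 to 2.24 times per kb in PAX4, with a median of 0.924 over all MANE transcripts. ATTTA, a pentamer of AU-rich elements, was most frequent in NEUROD1 (8 times, 3.21 per kb) and INSM1 (7 times, 2.46 per kb), was not found in NEUROG3, and had a median of 0.975 per kb. Exons of PAX6 overlap 5241 bases of ELP4 on the other strand, and those of NEUROD1 overlap 236 bases of CERKL on the same strand. Neither strand use nor the read counter is given in the sources used here, so reads in these stretches cannot be assigned with certainty. NKX2-2-AS1, which overlaps 638 bases of NKX2-2, was at no more than 0.186 TPM in any hILO library.

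ALKBH5 was at 78.8 and 81.9 TPM in WT hILOs and at 4.16 and 3.42 TPM in A5-KO hILOs, and at 149 and 172 CPM against 19.1 and 18.8 CPM in PPs at 0 h, so both stages matched their labels. PP libraries held 30516384 to 35206514 reads. TPM keeps no depth, so the reads behind the hILO values are unknown. The WT libraries at 2 h stood apart from each other, with a median absolute log2 difference of 0.196 per gene against 0.0662 to 0.147 in the other PP groups, and the tests at 2 h and the INSM1 slope are also given without each of them. The 7 endocrine markers were CHGA, CHGB, INS, GCG, SST, PPY and SCG5. In hILOs they summed to 34557 to 36871 TPM in WT and to 26427 to 27657 TPM in A5-KO, with 4 called lower. In PPs at 0 h they summed to only 1.92 to 3.62 CPM, and INS and GCG had no read in either genotype. In both stages RNA of whole cultures was measured, so fewer cells of a type and less RNA per cell cannot be told apart.

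In hILOs NEUROD1 and PAX4 were higher in A5-KO, and NEUROG3, at a low level, was lower. NEUROD1 rose from 209 ± 0.714 to 351 ± 1.63 TPM (SD, n = 2), PAX4 from 54.2 ± 0.823 to 82.3 ± 1.90 TPM, and NEUROG3 fell from 2.41 ± 0.0374 to 0.666 ± 0.114 TPM. These 3 of 9 factors passed the limits used throughout (limma adjusted p below 0.05 and over 1.5-fold, the fold taken on log2(value + 1)). Of all 17300 genes tested, 6.79% passed. NEUROG3 and MAFA reached the mean of 1 TPM needed for the test only through WT, and with no filter 2 of 9 factors, NEUROD1 and PAX4, passed. The groups of libraries did not overlap for any of the 9 factors, with 5 higher and 4 lower in A5-KO, but they did not overlap for 61.4% of all genes tested either. The median log2 fold change was 0.19 over the 9 factors and -0.06 over all genes tested.

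**Figure D1:**
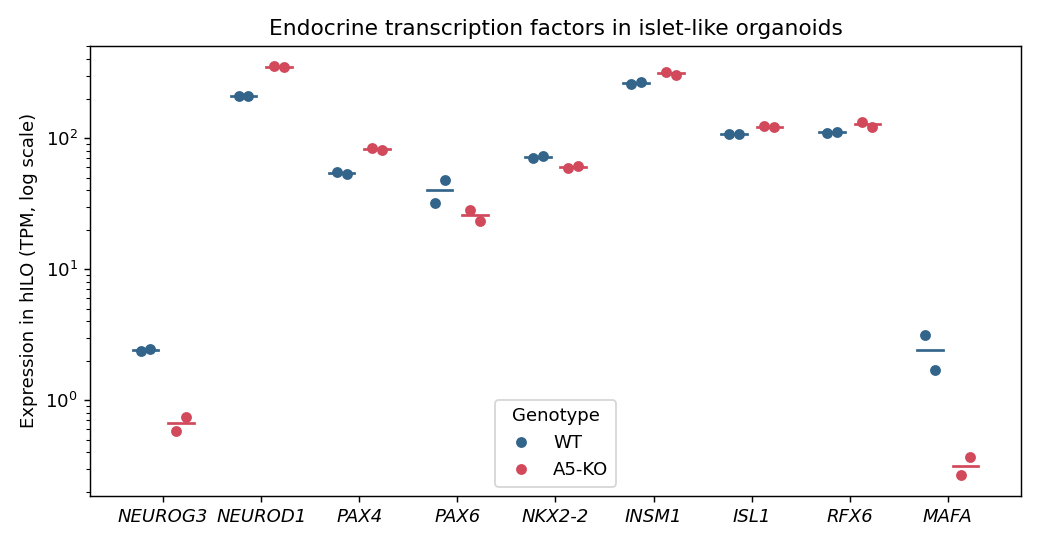
Expression of the 9 factors in hILOs. Each point is 1 library (TPM, log scale), with WT and A5-KO in different colours, and the short line is the mean of the 2 libraries. INSM1 and NEUROD1 are the most abundant and MAFA and NEUROG3 the least, and NEUROD1 passes above INSM1 in A5-KO.

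NEUROG3, which starts the endocrine programme, was with MAFA the lowest of the factors at this stage. The WT libraries held 2.38 and 2.44 TPM and the A5-KO libraries 0.586 and 0.747 TPM, which did not overlap. The log2 fold change on the TPM + 1 scale was -1.04 (standard error, SE, 0.20, adjusted p = 0.045 by limma), and on the TPM themselves the WT mean was 3.62-fold the A5-KO mean. The call is close to its limit: it was lost with no filter on low values (adjusted p = 0.11 by limma), with a pseudocount of 0.1 (adjusted p = 0.0516) and without each of the 4 libraries in turn (adjusted p from 0.127 to 0.165), although the direction held.

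NEUROD1, which NEUROG3 activates and which drives hormone genes and endocrine survival, was at 208 and 209 TPM (WT) against 352 and 350 TPM (A5-KO). Replicates differed by far less than the genotypes. The log2 fold change was 0.75 (SE 0.03, adjusted p = 0.0028 by limma), and NEUROD1 was the 1 factor that stayed called without any single library.

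PAX4, which favours the beta and delta over the alpha fate, stood at 54.8 and 53.6 TPM (WT) against 83.6 and 80.9 TPM (A5-KO). Both A5-KO libraries were higher than both WT libraries. The log2 fold change of 0.59 (SE 0.05, adjusted p = 0.0091 by limma) lay just past 1.5-fold, and with 3 libraries the adjusted p rose to between 0.0579 and 0.0673.

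INSM1 and NKX2-2 passed the adjusted p but changed less than 1.5-fold. INSM1, a zinc-finger repressor needed for endocrine differentiation, was at 259 and 267 TPM (WT) against 316 and 305 TPM (A5-KO) (log2 fold change 0.24, SE 0.04, adjusted p = 0.032 by limma). NKX2-2, a homeobox factor that maintains beta cell identity, was at 70.8 and 72.6 TPM (WT) against 59.0 and 60.8 TPM (A5-KO) (log2 fold change -0.26, SE 0.05, adjusted p = 0.048 by limma). The libraries of the genotypes were apart in both genes, in opposite directions. Scaling by the median of ratios left NKX2-2 at a log2 fold change of -0.19 with an adjusted p of 0.10, and dividing by CHGA left it at -0.10 (adjusted p = 0.64).

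The other 4 factors did not pass the adjusted p. ISL1, a LIM-homeobox factor of all endocrine cells, was at 107 and 108 TPM (WT) against 123 and 121 TPM (A5-KO) (adjusted p = 0.059 by limma). RFX6, a winged-helix factor needed for islet cell formation, was at 108 and 112 TPM (WT) against 133 and 122 TPM (A5-KO) (adjusted p = 0.10 by limma). Both had values slightly higher in A5-KO, with log2 fold changes of 0.19 and 0.21.

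PAX6 and MAFA had lower values in A5-KO but differed between replicates. PAX6, a paired-box factor that activates glucagon and insulin transcription, was at 32.0 and 47.7 TPM (WT) against 28.4 and 23.4 TPM (A5-KO) (log2 fold change -0.58, 95% interval -1.18 to 0.02, adjusted p = 0.17 by limma). MAFA was at 3.14 and 1.71 TPM (WT) against 0.268 and 0.366 TPM (A5-KO) (log2 fold change -1.35, 95% interval -2.14 to -0.56, adjusted p = 0.058 by limma). For both, the WT libraries differed more from each other than the A5-KO libraries did.

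**Figure D2:**
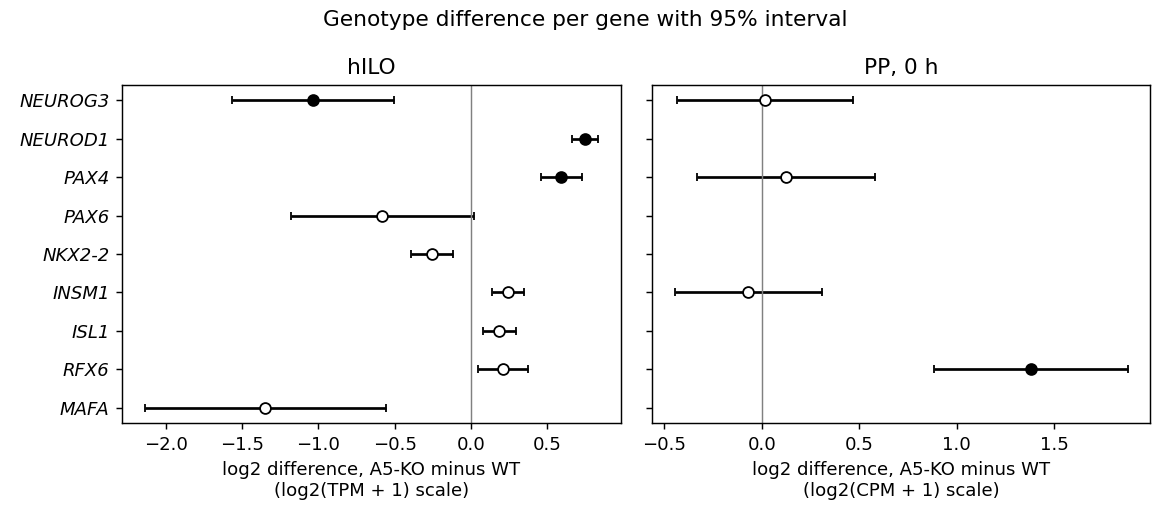
Genotype difference of each factor, A5-KO minus WT, on the log2(TPM + 1) scale in hILOs and the log2(CPM + 1) scale in PPs at 0 h. Points are limma estimates, bars 95% intervals and filled points passed both limits. In hILOs NEUROD1 and PAX4 lie above 0 and NEUROG3 below it, and in PPs RFX6 alone is filled; factors with no point in PPs had a mean CPM under 1.

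Because TPM is already divided by gene length, levels of different factors can be ordered within a library. In WT hILOs the order by TPM ran from INSM1 through NEUROD1, RFX6, ISL1, NKX2-2, PAX4 and PAX6 to MAFA and NEUROG3. RFX6 (108 and 112 TPM) and ISL1 (107 and 108 TPM) lay close together and overlapped in A5-KO (133 and 122 against 123 and 121 TPM), and the ranges of MAFA and NEUROG3 overlapped in WT. In A5-KO hILOs NEUROD1 passed INSM1 and PAX4 passed NKX2-2. The TPM of NEUROD1 was 0.804 and 0.783 times that of INSM1 in the WT libraries and 1.11 and 1.15 times in the A5-KO libraries. The TPM of PAX4 was 0.774 and 0.739 times that of NKX2-2 in WT and 1.42 and 1.33 times in A5-KO. Ratios within a library do not depend on how the library was scaled, and neither pair overlapped between the genotypes. With 2 libraries against 2, a two-sided exact permutation test cannot give a p below 0.33.

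Among 10 tested genes that act upstream of NEUROG3, 1 was lower and 0 were higher in A5-KO hILOs, with a median log2 fold change of -0.07. The gene called was HES1, the Notch-induced repressor of NEUROG3, at 44.6 and 44.1 TPM (WT) against 27.1 and 24.4 TPM (A5-KO) (log2 fold change -0.77, adjusted p = 0.013 by limma). HES1 and NEUROG3 were thus both lower. Among 16 tested other endocrine transcription factors, HHEX, a delta cell factor, was the 1 lower gene (log2 fold change -1.03, adjusted p = 0.032 by limma), and 0 were higher. Their median log2 fold change was -0.14. At an unadjusted p under 0.05, limma gave 6 of the 10 upstream genes and 8 of the 16 other factors, against 30.9% of all genes tested.

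Of 17 tested genes that these factors act on, 4 were lower in A5-KO and 0 were higher, with a median log2 fold change of -0.16. The 4 are the hormone genes PPY (log2 fold change -2.66), SST (-1.79), GCG (-0.82) and INS (-0.77). NEUROD1 was therefore higher in the same libraries in which INS and GCG were lower. CHGA, a granule protein of all endocrine cells, was at 18470 and 20798 TPM (WT) against 18215 and 17011 TPM (A5-KO) (adjusted p = 0.23 by limma), and the groups lay close.

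Markers of other cell types moved as well. The 8 hepatic markers summed to 19819 to 20172 TPM in WT hILOs and 32181 to 32469 TPM in A5-KO, with 2 called higher and 2 lower. TTR had the largest values of this list (7527 and 7550 TPM in WT against 18674 and 18749 TPM in A5-KO) and made up most of the difference between the sums. FGB was lower (1362 and 1394 TPM in WT against 737 and 748 TPM in A5-KO). The 5 intestinal markers summed to 675 to 676 TPM in WT and 893 to 907 TPM in A5-KO, and 1 was called higher. The 5 enterochromaffin markers summed to 1312 to 1315 TPM in WT and 1069 to 1142 TPM in A5-KO, with 2 called lower. The 5 duct markers summed to 651 to 662 TPM in WT and 910 to 952 TPM in A5-KO with 1 called lower. Most of the duct sum was KRT19 (629 and 617 TPM in WT against 913 and 872 TPM in A5-KO). The 3 cycling markers summed to 83.6 to 85.9 TPM in WT and 46.7 to 47.9 TPM in A5-KO with 2 called lower. The 5 mesenchymal markers summed to 3.31 to 7.34 TPM in WT and 21.8 to 24.0 TPM in A5-KO, with 1 of 2 tested called higher. The 5 acinar markers summed to 17.1 to 23.8 TPM in WT and 27.1 to 27.2 TPM in A5-KO with 1 called higher, and the 5 neuronal markers to 675 to 690 TPM in WT and 576 to 590 TPM in A5-KO with 1 called lower. SOX2, the 1 pluripotency marker tested, was at 15.7 and 14.7 TPM (WT) against 4.32 and 4.18 TPM (A5-KO) and was called lower. POU5F1 and NANOG, too low to be tested, reached at most 0.0464 and 0.0581 TPM in any hILO library. Of the progenitor markers 0 of 4 tested were called, with 3 at an unadjusted p under 0.05 by limma. None of these lists had a marker at 0 in both libraries of a genotype. Their part in the differences between the genotypes was not tested. When each TPM was divided by the CHGA of its library, NEUROD1 (log2 fold change 0.90, adjusted p = 0.015 by limma) and PAX4 (0.74, adjusted p = 0.028) stayed called and NEUROG3 did not (-0.95, adjusted p = 0.088).

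In PPs at 0 h RFX6 was the 1 factor that differed, and it was higher in A5-KO. The WT libraries were at 4.88 and 3.47 CPM and the A5-KO libraries at 15.4 and 9.90 CPM, 170 and 112 reads against 497 and 338. The groups did not overlap, and neither did the 95% Poisson intervals of the libraries of different genotype, which cover counting error only. The log2 fold change was 1.38 (SE 0.22, adjusted p = 0.0092 by limma), and the ratio of mean CPM was 3.02. It was called by edgeR (log2 fold change 1.55, adjusted p = 0.0044) and DESeq2 (1.56, adjusted p = 2.71e-07) on the reads recovered from the CPM, and was kept without each library in turn. It was lost when genes of low level were kept in the fit (adjusted p = 0.091).

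Of the 4 factors that passed the filter of a mean of 1 CPM, 1 was called, against 2.7% of the 13911 genes tested. Among these 4 factors RFX6 alone had groups of libraries that did not overlap (higher in A5-KO), against 49.8% of the genes tested. Below the filter the groups did not overlap for ISL1 (higher in A5-KO), PAX6 and NKX2-2 (both lower). PAX6 had at most 5 reads a library. INSM1 was at 10.1 and 7.75 CPM (WT) against 8.78 and 8.05 CPM (A5-KO), with a log2 fold change of -0.07 and a 95% interval of -0.45 to 0.31. NEUROG3 was at 2.61 and 1.89 CPM (WT) against 2.50 and 2.05 CPM (A5-KO), with a log2 fold change of 0.02 and an interval of -0.43 to 0.47. PAX4 was at 1.29 and 1.49 CPM (WT) against 1.89 and 1.35 CPM (A5-KO), with a log2 fold change of 0.12 and an interval of -0.33 to 0.58. The groups overlapped in all 3, and changes inside these intervals are not excluded by these libraries.

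**Figure D3:**
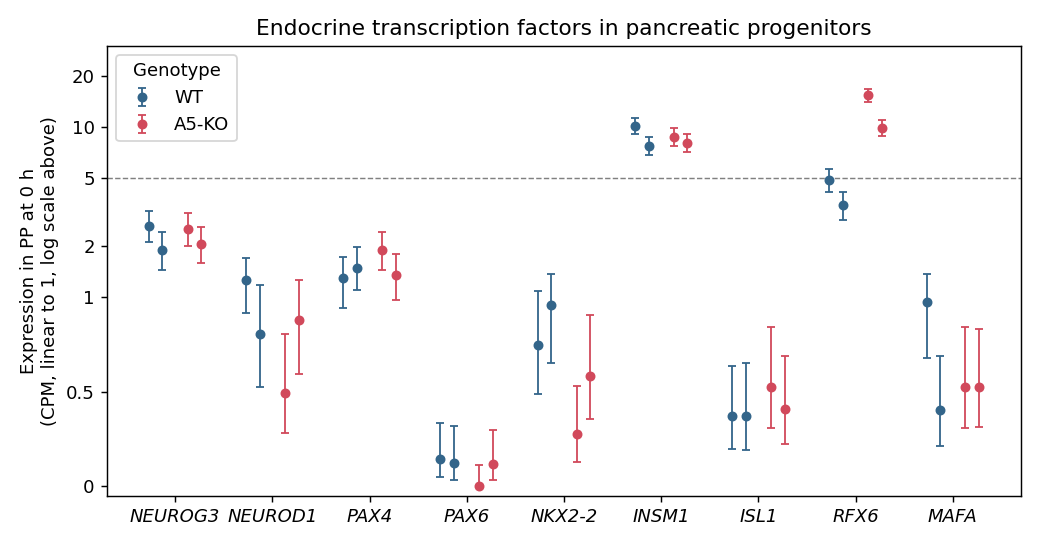
Expression of the 9 factors in PPs at 0 h. Each point is 1 library (CPM, linear below 1 and log scale above), coloured by genotype, with the 95% Poisson interval of its read count; the dashed line marks 5 CPM. RFX6 in A5-KO lies above all WT libraries, and 5 factors lie near or below 1 CPM.

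The remaining 5 factors had means under 1 CPM and did not enter the test. NEUROD1 was at 1.26 and 0.806 CPM (WT) against 0.494 and 0.879 CPM (A5-KO), 16 to 44 reads a library. NKX2-2 was at 0.746 and 0.961 CPM (WT) against 0.278 and 0.586 CPM (A5-KO), 9 to 31 reads. Both lay near the lower end of what these libraries can resolve. MAFA was at 0.976 and 0.403 CPM (WT) against 0.525 and 0.527 CPM (A5-KO), and ISL1 was at 0.372 and 0.373 CPM (WT) against 0.525 and 0.410 CPM (A5-KO). PAX6 had at most 5 reads in any library and 0 reads in A5-KO replicate 1 at 0 h, which allows up to 0.0927 CPM (3 reads). In a fit without the filter none of these 5 passed (limma adjusted p from 0.43 to 0.80).

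Levels of different factors in PPs can be compared roughly once CPM are divided by exon length and rescaled to the sum of the CPM. The length was that of all exons of a gene in GENCODE, merged over its transcripts. For NEUROD1 and PAX6 it was 8208 and 20639 bases, against 2493 and 2743 in the MANE transcript, which lowers their length-scaled values. On this length-scaled measure INSM1 led in WT at 10.0 (11.5 and 8.57 in the libraries), followed by NEUROG3 at 4.60 and RFX6 at 3.26. NEUROG3 (5.39 and 3.82) and RFX6 (3.84 and 2.67) overlapped. In A5-KO RFX6 (11.8 and 7.45) and INSM1 (9.66 and 8.71) overlapped at the top, with NEUROG3 next at 4.54. The hILO and PP tables were normalised apart, so levels set across them carry no test. NEUROG3 had a lower value per length in hILOs than in PPs in both genotypes, as had MAFA in A5-KO. The other 7 factors had higher values in hILOs in both genotypes, NEUROD1 for example at 209 TPM in WT hILOs against a length-scaled 0.402 in WT PPs.

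In untreated PPs, of 10 tested upstream regulators of NEUROG3, 1 was lower in A5-KO, ONECUT1, a cut-homeobox activator of NEUROG3 (log2 fold change -1.39, adjusted p = 0.0019 by limma), and 0 were higher. The median of this list was a log2 fold change of -0.09. Of 6 tested target genes, 1 was higher, SCGN, a calcium-binding protein of endocrine cells (log2 fold change 0.67, adjusted p = 0.0032 by limma). Of 10 tested other endocrine factors, limma called 0, with 3 at an unadjusted p under 0.05 against 19.3% of all genes. Some markers of other lineages also differed between the genotypes in these libraries. The 8 hepatic markers summed to 1094 to 1142 CPM in WT and 1908 to 1930 CPM in A5-KO, and 6 were called higher. AFP had the largest values (563 and 551 CPM in WT against 1343 and 1294 CPM in A5-KO). SERPINA1 was lower in A5-KO (311 and 371 CPM in WT against 200 and 268 CPM). The mesenchymal markers summed to 46.7 to 51.6 CPM in WT and 137 to 138 CPM in A5-KO, with 3 of 4 tested called higher. The intestinal markers summed to 590 to 617 CPM in WT and 793 to 818 CPM in A5-KO, with 0 of 5 called. Of the 5 duct and 2 acinar markers tested, 0 were called. None of the hepatic, mesenchymal or intestinal markers was at 0 in both libraries of a genotype, and their part in the RFX6 difference was not tested.

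Act D blocks the synthesis of mRNA, so a fall in level reads out decay relative to the rest of the library. INSM1 and RFX6, with means of 8.68 and 8.40 CPM at 0 h, reached the 5 CPM set for following decay, and NEUROG3, next in order at 2.26 CPM, did not. RFX6 reached it through A5-KO, since both WT libraries were under 5 CPM. CPM fix every library to the same total, so half-lives are relative to the pool of mRNA.

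Both A5-KO libraries lay below both WT libraries for INSM1 at each time in Act D. In WT it was at 5.32 and 6.15 CPM at 1 h, 3.53 and 8.26 CPM at 2 h and 4.36 and 4.77 CPM at 3 h. In A5-KO it was at 5.12 and 4.03 CPM at 1 h, 2.66 and 2.196 CPM at 2 h and 2.22 and 1.26 CPM at 3 h. The genotypes had overlapped at 0 h. By 3 h, 43.0% and 61.6% of the 0 h value were left in WT replicates 1 and 2 and 25.2% and 15.7% in A5-KO.

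The half-life of INSM1, fitted in each replicate to the log2 ratios to its 0 h library, was 1.87 and 6.34 h (WT) against 1.41 and 1.13 h (A5-KO). The median half-life over 13620 genes was shorter in A5-KO as well. From the mean slope of the replicates it was 21.1 h (WT) against 10.0 h (A5-KO). Slopes of 0 or more counted as an endless half-life. From 0 to 1 h 2081 genes were called lower in WT and 2281 in A5-KO. From 1 to 3 h 15 were called lower and 66 higher in WT, against 2117 and 114 in A5-KO. A single line over 0 to 3 h therefore joins unlike steps in WT. The WT replicates of INSM1 were far apart, and without the 2 h libraries they gave 2.21 and 4.18 h, against 1.52 and 1.15 h in A5-KO. Libraries of one number did not deviate together over the times, and against the mean of both 0 h libraries the half-lives were 2.18 and 4.07 h (WT) and 1.46 and 1.098 h (A5-KO). The slope per hour differed by -0.48 on the log2 scale between A5-KO and WT (SE 0.15, adjusted p = 0.081 by limma). That did not pass. It was -0.44 without WT 2 h replicate 2 (adjusted p = 0.087), but it passed without WT 2 h replicate 1 (-0.51, adjusted p = 0.027), without WT 0 h replicate 1 (-0.55, adjusted p = 0.036) and with 0 and 3 h alone (-0.44, adjusted p = 0.029).

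RFX6 started higher in A5-KO and reached the WT level within 2 h. In WT it was at 2.32 and 2.18 CPM at 1 h, 0.995 and 3.89 CPM at 2 h and 3.37 and 3.25 CPM at 3 h. In A5-KO it was at 6.07 and 4.79 CPM at 1 h, 2.04 and 2.26 CPM at 2 h and 4.15 and 2.50 CPM at 3 h. The genotypes were apart at 0 and 1 h and overlapped at 2 and 3 h, and in neither genotype was the 3 h mean below the 2 h mean.

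RFX6 therefore did not follow the single line that a half-life assumes. Its half-lives were 2.01 and 23.5 h (WT) against 1.11 and 1.27 h (A5-KO). Without the 2 h libraries they were 3.84 and 10.9 h (WT) against 1.45 and 1.46 h (A5-KO), and against the mean of both 0 h libraries 2.48 and 6.49 h (WT) against 1.28 and 1.07 h (A5-KO). Since RFX6 was followed for its high start in A5-KO, these are given as a description. Of the 4 factors in the fit 0 were called for a difference in slope, against 2.67% of 13620 genes. At an unadjusted p under 0.05 there were 3 (INSM1, RFX6 and NEUROG3) against 22.4% of genes, and edgeR called 0. Without 1 library the share of genes is not stable: 10 of the 16 such fits called 0 genes.

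**Figure D4:**
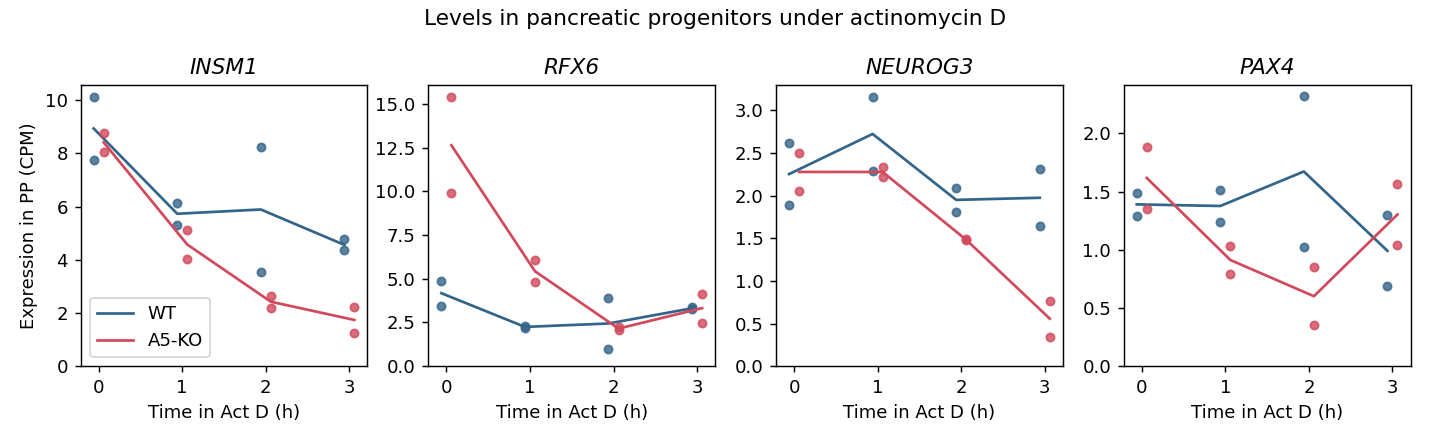
Levels of INSM1, RFX6, NEUROG3 and PAX4 in PPs against time in Act D. Points are single libraries (CPM), lines join the means of 2 libraries, and colours mark genotype. INSM1 and NEUROG3 in A5-KO fall below WT by 3 h, RFX6 in A5-KO falls to the WT level by 2 h, and PAX4 shows no steady order.

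NEUROG3 and PAX4 were too low for a half-life but passed the filter of the fit to the 8 group means. NEUROG3 in WT was at 2.29 and 3.16 CPM at 1 h, 2.09 and 1.81 CPM at 2 h and 1.64 and 2.31 CPM at 3 h. In A5-KO it was at 2.21 and 2.34 CPM at 1 h, 1.49 and 1.47 CPM at 2 h and 0.767 and 0.348 CPM at 3 h, the last being 27 and 11 reads. NEUROG3 thus stayed near its start for 1 h in both genotypes, and both A5-KO libraries lay below WT at 2 and 3 h. PAX4 ranged from 0.686 to 2.32 CPM in WT and from 0.350 to 1.56 CPM in A5-KO over 1 to 3 h, with no steady order of the genotypes.

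The group fit tested these changes step by step. From 0 to 1 h, 0 of 4 factors were called in WT (0 at an unadjusted p under 0.05 with limma, 0 with edgeR) against 15.5% of all genes. In A5-KO 2 of 4 fell, against 17.8%. These were RFX6 (log2 change -1.06, SE 0.32, adjusted p = 0.019 by limma) and INSM1 (-0.76, SE 0.27, adjusted p = 0.039). Both calls were lost without A5-KO 0 h replicate 1 or A5-KO 1 h replicate 2, and that of INSM1 also without A5-KO 0 h replicate 2 or A5-KO 1 h replicate 1. With no filter neither passed (adjusted p = 0.092 and 0.14 by limma), and INSM1 also missed the limit with a pseudocount of 0.1, median-of-ratios scaling, the replicate number as a block and edgeR (adjusted p from 0.0501 to 0.067). The difference between genotypes in this first change was called for 0 of 4 factors (0 at an unadjusted p under 0.05 with limma, 0 with edgeR) against 0.22% of genes.

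From 1 to 3 h, 0 of 4 factors were called in WT (0 at an unadjusted p under 0.05 with limma, 0 with edgeR) against 0.595% of all genes, and 2 of 4 fell in A5-KO against 16.4%. NEUROG3 fell by 1.09 on the log2 scale (SE 0.21, adjusted p = 0.0013 by limma) and INSM1 by 1.04 (SE 0.27, adjusted p = 0.0094). INSM1 lost its call without A5-KO 1 h replicate 1 or A5-KO 3 h replicate 2, and with no filter (adjusted p = 0.056). The difference between genotypes in this later change was called for 0 of 4 factors against 16.6% of genes. At an unadjusted p under 0.05 there were 2 against 33.5% of genes, NEUROG3 (-0.76, adjusted p = 0.079) and RFX6 (-1.002, adjusted p = 0.14), and edgeR called 0. RFX6 was called in this difference when either WT 2 h library was left out (adjusted p = 0.028 and 0.029), with the estimate itself unchanged.

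Beside RFX6 at 0 h, factors were called between the genotypes at 2 and 3 h. At 1 h 0 of 4 were called against 4.08% of genes, with RFX6 the 1 gene at an unadjusted p under 0.05 (log2 fold change 0.98, adjusted p = 0.078 by limma) and 0 called by edgeR. It passed when either WT 2 h library was left out (adjusted p = 0.0095 and 0.0097). At 2 h INSM1 was lower in A5-KO (log2 fold change -0.92, adjusted p = 0.036 by limma), 1 of 4 against 6.89%. That rests on the WT 2 h libraries that stood apart: without WT 2 h replicate 2 the log2 fold change was -0.41 (adjusted p = 0.42), and without replicate 1 it was -1.44 (adjusted p = 0.00046). PAX4 was not called at 2 h but passed without replicate 1 (-1.07, adjusted p = 0.0094) and not without replicate 2 (-0.36, adjusted p = 0.56). RFX6 stood at -0.63 without replicate 1 and 0.66 without replicate 2 (adjusted p = 0.094 and 0.22). The INSM1 call was also lost with no filter (adjusted p = 0.15) and without either WT 1 h or either A5-KO 2 h library (adjusted p from 0.050 to 0.21). At 3 h INSM1 (log2 fold change -1.04, SE 0.27, adjusted p = 0.0079 by limma) and NEUROG3 (-0.94, SE 0.21, adjusted p = 0.0028) were lower in A5-KO, 2 of 4 against 18.9%. Without A5-KO 3 h replicate 2 neither passed (adjusted p = 0.11 and 0.054), and INSM1 also missed the limit without WT 3 h replicate 2 and with no filter (adjusted p = 0.051 in both). Of all genes called at 3 h, 2411 were lower and 157 higher in A5-KO. Median-of-ratios scaling moved the 3 h difference of all genes by 0.14 on the log2 scale and left INSM1 at -0.95 (adjusted p = 0.0060 by limma) and NEUROG3 at -0.88 (adjusted p = 0.0038), both still called.

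The upstream regulators of NEUROG3 were lower in A5-KO at 3 h as well. All 10 tested were called lower, where 18.9% of all genes were called in either direction. Their median log2 fold change was -1.74 against -0.13 over all genes. The 4 with the largest change were SOX9 (-2.24), PDX1 (-2.15), GATA6 (-2.03) and HES1. SOX9 and HES1 mark progenitors, and PDX1 and GATA6 are pancreatic fate factors. Of 9 tested other endocrine factors 8 were lower, against the same 18.9%, led by NKX6-1 (-2.06) and TOX3 (-1.76). Of 6 tested target genes 0 were called, with 1 (SCGN, log2 fold change 0.30) at an unadjusted p under 0.05 against 41.1% of genes. The difference between genotypes in the change from 1 to 3 h was called for 8 of the 10 upstream regulators, with a median of -1.99. It was called for 5 of the 9 other factors and for 16.6% of all genes. The median change of the upstream regulators from 0 to 1 h was -1.56 in WT and -1.54 in A5-KO. From 1 to 3 h it was 0.25 in WT and -1.70 in A5-KO.

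The genes whose levels followed INSM1 most closely over the 8 means of the PP groups were ZMIZ1, SLC25A45 and ETV5, with a Pearson r of 0.997, 0.996 and 0.996 on log2(CPM + 1) among 10870 genes compared. For RFX6 they were PDCD2 (r = 0.992), CACYBP (0.977) and PIGM (0.975). INSM1 and RFX6 themselves had an r of 0.47. The 8 points share the time course of Act D, so likeness of this kind is common to many genes and is given as a description.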

How the data were processed

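RNA-seq of WT and A5-KO hILOs (4 libraries) and of PPs under Act D (16 libraries) was analysed, grouped by the sample labels. Reads were trimmed with fastp and aligned to GRCh38 with HISAT2 (version 2.1.0) by the authors, who deposited TPM from StringTie for hILOs and CPM without ERCC spike-ins for PPs. The read counter, its strand setting and the annotation release are not given in the sources used here. All CPM values were whole reads within a tolerance of 0.02, and the recovered reads served edgeR (4.0.16) and DESeq2 (1.42.0) as alternatives. TPM keeps no depth.

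The genotypes were compared with limma (3.58.1, run in R 4.3.3 with trended eBayes) on log2(TPM + 1) or log2(CPM + 1), keeping genes whose mean reached 1, and slopes on log2(CPM + 0.1). Calls needed a Benjamini-Hochberg adjusted p below 0.05 over all genes tested and, except for slopes, a change over 1.5-fold. DESeq2, which the paper used, needs counts and was therefore not the main test. A half-life was the inverse of the slope fitted, with no intercept, to log2 ratios of CPM + 0.1 against 0 h of the same replicate number, for factors with a mean of at least 5 CPM at 0 h.

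The 9 factors, the gene lists and the rule for named genes (all 9 factors, ALKBH5, per list at most 4 called genes with the largest change in each direction, and the 3 genes most like each followed factor) were chosen with earlier results of these data known. Marker genes and CHGA beside a result, and SCGN at 3 h, were chosen after their values were seen. Same-numbered libraries did not deviate together (correlations from -0.0594 to 0.181 over the 5 pairs of groups), so the numbers were not used as a block. Across times within a genotype the correlations ran from -0.255 to 0.158 over 12 pairs, so half-lives are also given against the mean of both 0 h libraries and without the 2 h libraries (both chosen after seeing the data). Exon lengths, coordinates and transcripts are from GENCODE and promoters from RefSeq. The code was tested on simulated data. Alternatives were the pseudocount, the filter, median-of-ratios and quantile scaling, the block, the count tools, fewer times, all PP libraries in one fit, division by CHGA (chosen after seeing the data) and each library left out in turn. The conversion of CPM by spike-ins was not repeated.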

Additional observations from a re-analysis of the deposited data

How the results depend on the processing

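In hILOs NEUROD1 and PAX4 stayed called under every setting that used all 4 libraries, while NEUROG3 kept its call only under median-of-ratios scaling. Leaving out a library gave 1 of 9 factors called in each of the 4 fits, NEUROD1. The count over all genes was 330 with no filter on low values and 674 with the replicate block, instead of 1174, and 189 to 288 without a library. In PPs at 0 h, 0 of 9 factors and 164 genes were called with no filter and 631 genes with the replicate block, instead of 375 genes. The replicate block changed no call of a factor besides NEUROG3 in hILOs (adjusted p = 0.096) and INSM1 from 0 to 1 h in A5-KO.

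The slopes of 3 factors differed with 0 and 3 h only, and leaving out a library gave 0 to 1. The count of genes with a different slope, 364, was 173 with a pseudocount of 1, 109 under median-of-ratios scaling, 54 with 0 and 1 h only, 3029 with 0 and 3 h only, and 0 with no filter or with the replicate block. It was 0 to 1504 without a library, and 0 in 10 of these 16 fits. Without a library 314 to 2303 genes were called between genotypes at 2 h, instead of 939. With no filter the gene counts fell from 81 to 49 (WT, 1 to 3 h), from 556 to 328 and from 939 to 445 (between genotypes at 1 and 2 h), and from 30 to 18 and from 2264 to 1109 (genotype difference in the first and the later change). For the change from 0 to 1 h in A5-KO, 1 factor was called with a pseudocount of 0.1, with median-of-ratios scaling, with the replicate block and with edgeR, and 0 with no filter. With a pseudocount of 0.1 the genotype difference in the change from 1 to 3 h was called for 1 factor. With no filter, 1 factor was called in WT from 0 to 1 h, 1 in A5-KO from 1 to 3 h, 0 between genotypes at 2 h and 1 at 3 h. Leaving out a library gave 0 to 1 factors from 0 to 1 h in WT, 0 to 2 in A5-KO, 1 to 2 from 1 to 3 h in A5-KO, 0 to 1 for the genotype difference in that change, and between genotypes 0 to 1 at 1 h, 0 to 2 at 2 h and 0 to 2 at 3 h.

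Signs turned only in log2 differences that passed no test. NEUROG3 at 0 h was -0.012 under median-of-ratios scaling, -0.021 by edgeR and -0.020 by DESeq2. PAX4 in WT from 0 to 1 h was 0.075 under median-of-ratios scaling and 0.13 by edgeR. RFX6 between genotypes was 0.081 and 0.14 at 3 h in these 2 settings and -0.060 at 2 h by edgeR. Leaving out a library gave ranges at 0 h of -0.025 to 0.27 for PAX4, -0.14 to 0.18 for NEUROG3 and -0.24 to 0.11 for INSM1. From 0 to 1 h the range was -0.094 to 0.075 for PAX4 in WT and -0.097 to 0.10 for NEUROG3 in A5-KO. Between genotypes RFX6 ranged from -0.63 to 0.66 at 2 h and from -0.30 to 0.26 at 3 h, and PAX4 from -0.0046 to 0.44 at 3 h. The cause was not tested. Groups left with 1 library were assumed to vary like the others. TPM hides the depth behind NEUROG3 and MAFA in hILOs, and 5 factors had at most 44 reads a library in PPs.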
